A study of Mus musculus with 9 samples.

Results

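The HSC arrays and the ESC-D3 arrays of this study were compared probe set by probe set, to describe what a marrow gate that carries CD45 and Sca-1 expresses against a pluripotent line. These are 6 of the 9 arrays measured, 3 in each group, and all 45037 probe sets that are not array controls entered the test. The HSC libraries came from bone marrow of C57BL/6 mice aged 4 weeks and held cells sorted as Sca-1+ Lin– CD45+. ESC-D3, called ESC below, is an embryonic stem cell line of strain 129S2/SvPas, grown on 0.1% gelatin with 10 ng/ml of leukaemia inhibitory factor (LIF), then trypsinised and sorted in the same way. Every library was made from 20 cells by direct lysis and PCR amplification, and the labels leave unsaid whether 1 mouse or culture, or several, supplied a group. The p-values thus rest on the variation among 3 arrays of a group, part of which may be technical. The groups also differ in strain, in age and in being fresh tissue or culture, and these cannot be told apart from the cell type.

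Haematopoietic stem cells are the rare marrow cells that renew themselves and give rise to every blood lineage. In the mouse they are sought among cells that carry Sca-1 and lack the surface antigens of mature lineages, and most of them also carry the receptor Kit. Embryonic stem cells come from the inner cell mass, divide fast, and are held undifferentiated by a circuit of transcription factors around Oct4, Sox2 and Nanog. LIF sustains that circuit in culture through the JAK and STAT3 proteins.

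The label was first set against its marker genes. Of 27 measured genes listed for mouse haematopoietic stem cells, 4 were called higher on the HSC arrays than on the ESC arrays and 3 lower. The 4 include Cd48, a receptor that stem cells lack. Granule, T cell and natural killer (NK) cell genes were far higher. The arrays are therefore called the CD45-positive gate, or HSC arrays, without taking them for purified stem cells. The gene of Sca-1, Ly6a, has no probe set assigned to a single gene in the annotation used here and is given no value. In pools of cells, fewer cells of a type and less RNA per cell cannot be told apart.

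Values are log2 RMA values, in which one unit is a doubling. They correlated across probe sets at r = 0.927 to 0.947 among the HSC arrays, at 0.952 to 0.957 among the ESC arrays and at 0.803 to 0.832 between the groups. Each gene is represented by whichever of its probe sets had the highest mean over the 6 arrays, and was called at an adjusted p of 0.05 or less (limma, Benjamini-Hochberg over all probe sets). On the control probe sets for both ends of the Gapdh and beta-actin transcripts, the 3′ end exceeded the 5′ end by 0.73, 0.96 and 0.92 on the HSC arrays and by 0.45, 0.43 and 0.34 on the ESC arrays. Every HSC array thus lay above every ESC array in this measure of transcript integrity, so it cannot be told apart from the cell type. With it as a covariate the median standard error (SE) rose from 0.19 to 0.54 and 178 genes were called, while 96.1% of the called probe sets kept their sign.

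Of 18193 genes, 3408 were called, which is 18.7%: 1590 (8.74%) were higher and 1818 (9.99%) lower on the HSC arrays. In all 3408 the values of the 3 HSC arrays lay wholly above or wholly below those of the 3 ESC arrays, as they did for 6941 genes (38.2%) in all. The median difference over all genes was -0.04. The largest differences lay more often on the blood side, with 144 genes called at least 64-fold higher and 45 at least 64-fold lower. A further 690 genes differed by more than 4-fold without being called. No detection calls were used, so a difference against a group near the low end of the scale can understate the true ratio. Unless an exception is given, each called gene named below stayed called when any single array was left out. Mir142, added later, was not part of that check. With probe sets that may read several transcripts left out, Trbv1, Fgfr1, Id2, Itga5 and Smarca2 were read from others and were not called. Col1a2, Cd79a, Lifr, Klf5 and Eomes were not called in that setting either. Of the 503 called genes that were named or in lists, 433 had a value in it. With the study's other 3 arrays in the fit, Cish, H2-Ab1, Il7r, Mcl1, Stat3, Vim, Ms4a1, Slc1a5, Tbx6 and Dnmt1 were not called. Against a 2-fold change 139 of the 503 were not called, among them Cd4, Esrrb, Npm1, Cdk4, Lmo2, Mcl1 and Col1a2. With the replicate numbers as a block 94 were not called. Ctnnb1, Ccne1, Vim, Lyl1, Slamf1 and Cd79a were called in neither of these settings.

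**Figure D1:**
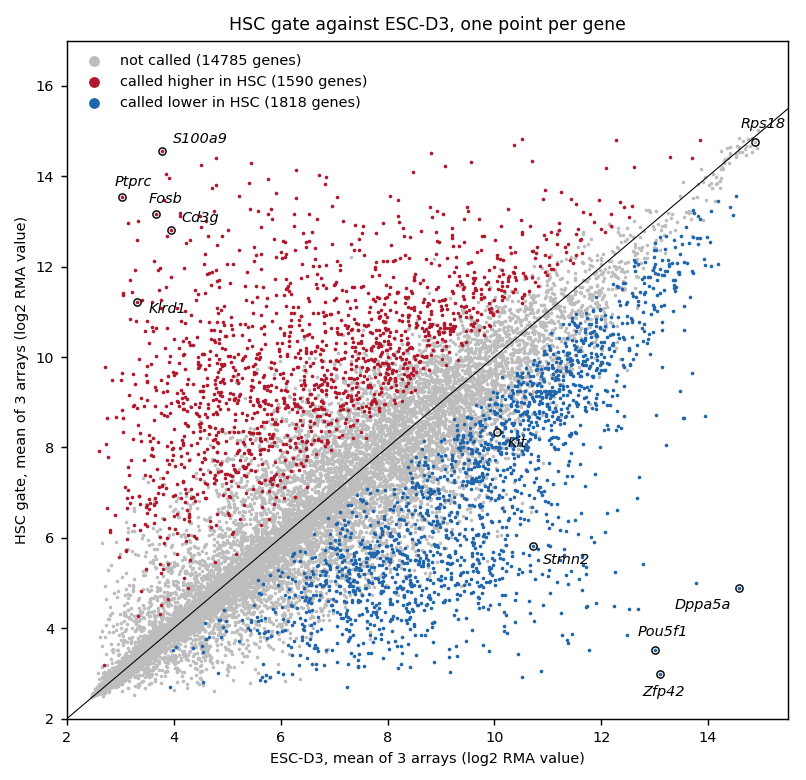
Each point is a gene, with the mean log2 RMA value of the 3 ESC arrays on the horizontal axis and of the 3 HSC arrays on the vertical axis, and the line marks equal values. Red points are the 1590 genes called higher and blue points the 1818 called lower on the HSC arrays. Ptprc, S100a9, Fosb, Cd3g and Klrd1 lie far above the line, Zfp42, Dppa5a, Pou5f1 and Stmn2 far below it, and Rps18 on it.

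Genes shared by leukocytes separated the groups almost completely. Of 25 measured, 24 were called higher on the HSC arrays and none lower, against 8.74% of all genes called higher, with a median difference of 6.85. Ptprc encodes CD45, the antigen used for the sort, so its difference is not independent of the gate. Ptprc read 13.40, 13.68 and 13.54 on the HSC arrays and 3.17, 2.94 and 2.98 on the ESC arrays, 10.51 higher (SE 0.12; limma, adjusted p = 6.73e-06). These values do not come near each other in any pair of arrays. That probe set is of a kind that can read more than 1 transcript form; with such probe sets left out Ptprc was read from another, which differed by 1.04 (adjusted p = 0.395).

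The 250 bases before the annotated start of Ptprc are shown because a short ETS motif, the recognition core of a large family of blood transcription factors, recurred in the leukocyte promoters. Capitals mark AGGAAG on either strand, in the RefSeq sequence of chr1:138175306-138175555 on the minus strand (GRCm38.p6).
Ptprc: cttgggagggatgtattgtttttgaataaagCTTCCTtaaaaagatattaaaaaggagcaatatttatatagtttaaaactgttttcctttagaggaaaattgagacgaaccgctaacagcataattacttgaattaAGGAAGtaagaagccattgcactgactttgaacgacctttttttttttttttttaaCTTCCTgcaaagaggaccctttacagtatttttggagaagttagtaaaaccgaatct

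Such windows of 250 bases before to 50 after the start held AGGAAG on either strand in 15 of 21 promoters of the leukocyte list (71.4%), against 35.4% of all 32851 promoters. The share was 41.4% for genes called higher and 29.8% for genes called lower on the HSC arrays. A match is a run of letters and not a bound site.

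Other leukocyte genes moved with Ptprc. Lcp1 (L-plastin, an actin-bundling protein) was 9.69 higher (SE 0.18, adjusted p = 1.5e-05). Cd52, a small surface glycoprotein of lymphocytes, was 9.01 higher and Rac2, a GTPase of blood cells, 8.18 higher. Itgb2, the beta chain of the leukocyte integrins, read 13.25, 13.22 and 13.32 against 5.27, 5.58 and 5.45. The list's median level per array was 12.77 to 12.98 in HSC and 5.27 to 5.62 in ESC. Inpp5d (SHIP1, a lipid phosphatase) was the member not called, at 12.06, 11.47 and 10.70 against 8.86, 7.69 and 9.76 (adjusted p = 0.055). With the transcript integrity covariate 12 of the 25 stayed called.

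Neutrophil granule and maturation genes had the largest median difference of the 49 lists, 7.55. Of 18 measured, 17 were called higher and none lower, and the count was 17 without each array in turn. S100a9, a calcium-binding protein stored in neutrophils, read 14.29, 14.70 and 14.71 on the HSC arrays and 3.91, 3.76 and 3.68 on the ESC arrays. Its difference of 10.78 (SE 0.16, adjusted p = 8.68e-06), a ratio of 1759-fold, was the largest of all genes. Its partner S100a8 was 9.73 higher.

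The list covered several stages of granule formation. Mpo, myeloperoxidase of the primary granules that form first, read 12.40, 12.69 and 12.96 against 4.57, 4.54 and 4.82. Elane, the elastase of the same granules, was 6.30 higher (SE 0.15, adjusted p = 2.3e-05). Among genes of the later, secondary granules, lactoferrin (Ltf) was 9.02 higher, Lcn2 10.04, Ngp 9.62 and Camp 7.85. Cxcr2, the chemokine receptor of mature neutrophils, was the exception at 4.38, 5.64 and 4.97 against 4.39, 4.34 and 4.26 (adjusted p = 0.316). With the covariate 11 of the 18 stayed called. In this list 14 of 17 promoters held AGGAAG (82.4%).

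T cell genes followed. Of 21 measured, 20 were called higher and none lower, a count that did not move when any single array was left out, and the median difference was 6.15. Cd3g, a chain of the T cell receptor complex, read 12.55, 12.91 and 13.01 on the HSC arrays and 4.20, 3.81 and 3.82 on the ESC arrays. Its difference was 8.88 (SE 0.18, adjusted p = 1.69e-05), with no overlap. Trbv1, a variable segment of the T cell receptor beta locus, was 9.66 higher.

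Coreceptors of both T cell classes were on the list. Cd8b1, of cytotoxic T cells, read 11.33, 11.26 and 11.18 against 3.83, 3.62 and 3.82. Cd4, of helper T cells, read 8.29, 7.75 and 7.87 against 6.58, 6.50 and 6.34, a difference of 1.49 (SE 0.17, adjusted p = 0.00505). Ccr7, the homing receptor of naive and memory T cells, was 8.29 higher and Il7r, their interleukin-7 receptor, 6.95 higher. Trat1 was the member not called (adjusted p = 0.971). With the covariate 4 of the 21 stayed called, and the median difference was 4.91.

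NK cell and cytotoxic effector genes were called higher for 21 of 23 members, with a median difference of 5.49. Klrd1, which encodes the CD94 receptor of NK and activated cytotoxic cells, read 10.92, 11.40 and 11.32 on the HSC arrays and 3.35, 3.26 and 3.35 on the ESC arrays. It was 7.90 higher (SE 0.15, adjusted p = 1.58e-05). Ifng (interferon gamma) was 8.64 higher and Ccl5, a chemokine stored by effector lymphocytes, 8.86 higher.

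Granule contents of killer cells were also higher. Gzmb (granzyme B) read 8.99, 9.35 and 9.16 against 4.96, 4.90 and 4.74, and Tbx21 (T-bet, a factor of type 1 effector cells) was 6.97 higher. Not called were Cd226 and Klra8, an Ly49 receptor that read 6.93, 3.45 and 7.31 against 2.91, 3.01 and 2.82 and so was near the ESC level on a single HSC array. With the covariate 8 of the 23 stayed called.

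B lineage genes were also higher, but with a wide spread among the HSC arrays. Of 20 measured, 12 were called higher and none lower, with a median difference of 3.25. The call count fell to 7 without ESC array 1 and to 5 without ESC array 2 or ESC array 3. Ms4a1 (CD20) read 11.25, 8.50 and 7.93 on the HSC arrays and 3.68, 3.70 and 4.01 on the ESC arrays. Its difference was 5.43 (SE 0.90, adjusted p = 0.0169), and the call was lost without any one of the ESC arrays (highest adjusted p = 0.0659).

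Array 1 of the HSC group stood out here. It held the highest of the 3 HSC values for 15 of the 20 B lineage genes and for all 11 genes of MHC class II presentation, but for 5289 of all 18193 genes and for none of the 23 NK genes. The median SD among the HSC arrays was 1.14 in the B lineage list and 0.81 in the class II list, against 0.27 over all genes. Cd79a, a signalling chain of the B cell receptor, read 11.38, 8.28 and 8.65, and Cd22, an inhibitory receptor of B cells, 11.71, 7.29 and 9.02. Cd79a was called (adjusted p = 0.0495), and not without any array other than HSC array 1 (up to 0.156), while Cd22 was not called. Among class II genes H2-Ab1 read 13.34, 11.94 and 11.95 on the HSC arrays against 5.99, 7.08 and 6.87 on the ESC arrays.

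Early and late B cell stages could be read side by side. Pou2af1, a coactivator of immunoglobulin genes, was 6.39 higher (SE 0.34, adjusted p = 0.000395) and the light chain segment Igkv8-30 9.07 higher. The only probe set of Igkv8-30 is of a kind that may read several transcripts, so the value may not be of that segment alone. Vpreb3, of precursor cells, read 9.58, 9.95 and 9.19 against 6.37, 6.07 and 6.87. Pax5 and Ebf1, the factors that commit cells to the lineage, were not called, Pax5 at 5.76, 5.38 and 5.35 against 5.49, 5.42 and 5.71. Rag1 and Rag2, which cut the receptor genes, were not called either.

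Class II presentation genes were called higher for 9 of 11 members, and for none lower, with a median difference of 4.49. With the covariate 1 member was called here, and 1 in the B lineage list. Ctss (cathepsin S, which trims the invariant chain) was 8.31 higher and H2-Aa 5.89 higher. Ciita, the coactivator that switches on the class II genes, was not called, at 6.00, 5.05 and 4.71 against 4.69, 4.49 and 4.79 (adjusted p = 0.411).

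**Figure D2:**
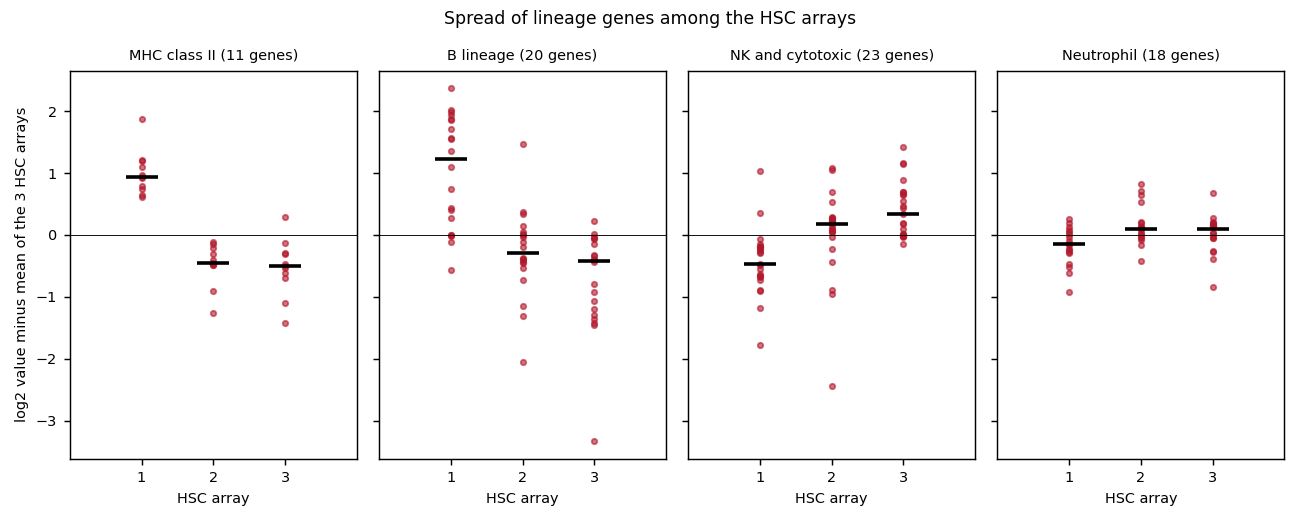
Each point is a gene of the named list on one HSC array, as its log2 value minus the mean of the gene over the 3 HSC arrays, and the black bars are medians over the genes. All 11 MHC class II genes and 15 of 20 B lineage genes are highest on array 1, while none of the 23 NK and cytotoxic genes is; the neutrophil genes have a median SD of 0.24.

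Monocyte and dendritic cell genes were called higher for 11 of 20 members and plasmacytoid dendritic or plasma cell genes for 4 of 17. The share over all genes was 8.74%. With the covariate 1 and 2 of them were called, all higher. Csf1r, the receptor of the macrophage growth factor, read 11.50, 10.81 and 10.39 against 6.34, 6.42 and 6.36, 4.53 higher (SE 0.29, adjusted p = 0.000692). Jchain, which joins secreted antibodies, was 8.51 higher (adjusted p = 8.75e-05). Cx3cr1 and Fcgr1, of mature monocytes and macrophages, were not called, and neither was Zbtb46 of conventional dendritic cells. Other genes of such mature cells, C1qc, Mpeg1 and Itgax, were called higher. Adgre1 was also called higher, a call lost without HSC array 2 or any one of the ESC arrays (up to 0.0657).

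Erythroid genes were called higher for 6 of 15 and megakaryocyte and platelet genes for 4 of 15. Genes of eosinophils, basophils and mast cells were called higher for 5 of 14, against 8.74% of all genes. These counts were small and unsteady: 3 erythroid genes were called without ESC array 1 or ESC array 2, 2 megakaryocyte genes without HSC array 2 or any one of the ESC arrays, and 3 of the third list without the same 4 arrays. With the covariate limma called 0 genes of these lists. Klf1, the master factor of red cell genes, read 9.62, 10.97 and 9.60 against 5.55, 5.20 and 4.83 (adjusted p = 0.0021). Plek, a platelet kinase substrate also made in leukocytes, was 6.18 higher. Epx, the eosinophil peroxidase, read 8.91, 9.77 and 9.66 against 4.69, 4.70 and 5.20.

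Some genes of single blood lineages were spread widely among the HSC arrays. Prg2, a major protein of eosinophil granules, read 8.55, 11.52 and 12.68 on the HSC arrays and 4.41, 4.15 and 4.38 on the ESC arrays. It was called at adjusted p = 0.0159, and not without HSC array 2 or any one of the ESC arrays (up to 0.0633). Rhag, of the red cell membrane, read 5.40, 3.90 and 7.66, and the platelet chemokine Ppbp 2.97, 3.42 and 6.58. Neither was called. Of 17 endothelial genes none was higher and 3 were lower (1 lower without any one of the HSC arrays or ESC array 3). Among 20 mesenchymal and matrix genes 2 were higher, Thy1 and Vim, both also made in leukocytes, and 5 were lower, against 9.99% of all genes. The lower ones were Sparc, which fell by 8.10, the receptor Pdgfra, which fell by 4.85, the phosphatase Alpl, which fell by 4.44, fibronectin (Fn1), which fell by 2.80, and the collagen chain Col1a2, which fell by 1.70. Cdh5 of endothelium and Cxcl12, Lepr and Col1a1 of stroma were not called.

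Of the 27 measured genes listed for haematopoietic stem cells, 4 were called higher, Cd48 among them (against 8.74% of all genes), and 3 lower (against 9.99%). Their median difference was -0.07, and the median level was 6.22 on the lowest HSC array and 6.34 on the highest ESC array, so the groups overlap. Kit, the stem cell factor receptor, read 8.96, 7.57 and 8.48 on the HSC arrays and 10.29, 9.47 and 10.37 on the ESC arrays, 1.70 lower on the log2 scale without being called (SE 0.44, adjusted p = 0.07). Every HSC value for Kit was below every ESC value. Each HSC value also lay above the upper quartile of its own array (7.18, 7.12 and 7.11). The contrast is with a line that itself reads Kit high, so it does not show that the gate lacks Kit.

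The factors Meis1, Mecom and Hoxa9, which sustain stem cells, were not called. Meis1 read 5.04, 5.09 and 5.09 against 5.09, 4.75 and 5.01. Hlf, a factor largely confined to stem cells within the marrow, read 6.86 on HSC array 1 but 4.71 and 4.69 on the others, against 4.60, 4.60 and 4.55 in ESC (adjusted p = 0.526). Flt3, of multipotent progenitors, read 8.45, 8.45 and 6.96 against 6.34, 6.37 and 6.34 (adjusted p = 0.083). Cd34 was not called (adjusted p = 0.371), and neither were Gata2, Tal1, Tek or Bmi1.

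The called members divided. Cd48, a receptor that stem cells lack and more mature cells carry, read 10.52, 10.61 and 10.89 against 3.70, 3.55 and 3.55, 7.08 higher (SE 0.13, adjusted p = 1.5e-05). Lmo2, an adaptor of blood transcription factors, was 2.49 higher (adjusted p = 0.00887). Slamf1 (CD150) read 6.11, 7.41 and 8.58 against 4.46, 4.32 and 4.28, 3.01 higher (adjusted p = 0.0359), and Lyl1 was 3.00 higher. The Slamf1 call was lost without HSC array 2 or any one of the ESC arrays (up to 0.115), and its sign turned to -0.14 with the covariate. The Lyl1 call was lost without HSC array 1 or 2 or ESC array 1 or 2 (up to 0.0793).

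Lower members were Procr (EPCR, a receptor by which stem cells are enriched), Ctnnal1 and Egfl7. Procr read 5.85, 4.88 and 5.17 against 7.23, 6.51 and 7.03, so it fell by 1.62 (SE 0.32, adjusted p = 0.0312). Its call was lost without HSC array 2 or 3 or ESC array 1 or 3 (up to 0.102), that of Ctnnal1 without ESC array 1 (0.0536), and that of Egfl7 without any one of the HSC arrays or ESC array 1 or 3 (up to 0.133). Over the whole list, 2 genes were called higher without HSC array 2, ESC array 1 or ESC array 2. The count called lower was 0 without ESC array 1 and 1 without HSC array 2, HSC array 3 or ESC array 3.

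**Figure D3:**
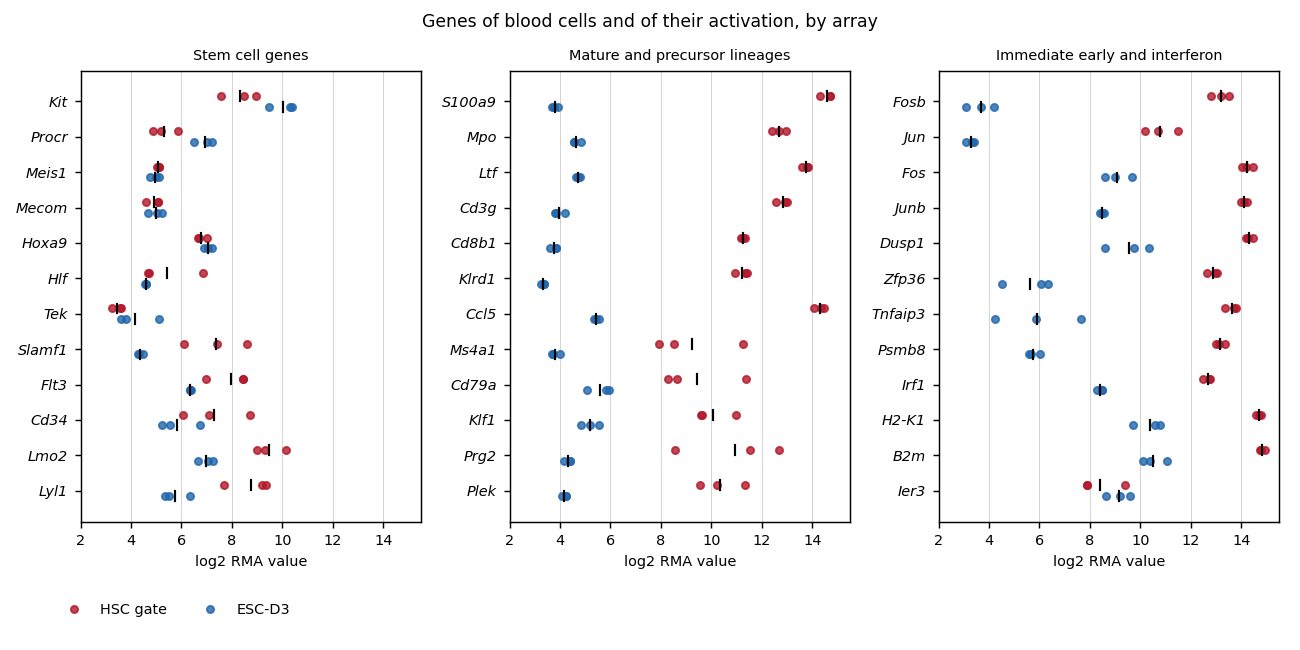
Each row is a gene, with its log2 RMA value on the 3 HSC arrays in red and the 3 ESC arrays in blue, and short black bars mark group means. In the left panel Meis1, Mecom, Hoxa9, Tek and Cd34 overlap between the groups, Kit and Procr lie lower and Slamf1, Lmo2 and Lyl1 higher on the HSC arrays; in the middle and right panels the values of Cd3g, Klrd1, S100a9, Fosb and Psmb8 are wide apart, and Ms4a1, Cd79a and Prg2 are spread among the HSC arrays.

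Transcription factors of blood cells were called higher for 18 of 29, and for none lower, with a median difference of 3.72. With the covariate 4 were called. Ikzf1 (Ikaros, of lymphoid development) read 11.35, 11.61 and 11.47 against 4.41, 4.42 and 4.34. Gfi1, of granulocyte and lymphoid cells, was 6.00 higher (SE 0.10, adjusted p = 1.16e-05) and Fli1, an ETS factor, 5.35 higher. Spi1 (PU.1), the ETS factor of myeloid and B cells, read 9.38, 9.57 and 8.58 against 5.98, 6.50 and 6.28, and Myb, of progenitors and thymocytes, was 4.77 higher. Cebpa, of myeloid progenitors, and Gata1, of red cells and platelets, were not called, Gata1 at 6.58, 7.55 and 9.07 against 5.17, 6.35 and 5.37. Erg was not called either (adjusted p = 0.968).

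Immediate early genes, which respond within minutes to a stimulus, were called higher for 24 of 28 members and lower for none, with a median difference of 4.91. Fosb read 12.81, 13.53 and 13.19 on the HSC arrays and 4.21, 3.10 and 3.69 on the ESC arrays. Its difference was 9.51 (SE 0.34, adjusted p = 9.82e-05), a ratio of 728-fold. Jun, the partner of Fos proteins, read 10.69, 10.20 and 11.49 against 3.41, 3.10 and 3.34. Fos itself read 14.01, 14.47 and 14.20 against 8.98, 8.60 and 9.65.

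Feedback regulators moved with these factors. Dusp1, a phosphatase that ends MAP kinase signals, was 4.75 higher (SE 0.45, adjusted p = 0.00254), and Zfp36 (tristetraprolin, which destabilises cytokine mRNAs) 7.24 higher. Cd69, an early activation antigen of lymphocytes, read 11.18, 12.10 and 11.82 against 2.90, 3.21 and 3.44. Ier3 was not called, at 9.41, 7.89 and 7.88 against 9.57, 9.19 and 8.65. With the transcript integrity covariate 1 of the 28 stayed called, with a median difference of 3.40. The HSC cells had been through marrow preparation and a sort and the ESC cells through trypsin and a sort, and the part of handling in these levels was not tested.

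NF-kappaB pathway genes were called higher for 15 of 18 and none lower, with a median difference of 3.25. With the covariate limma called 0 of the 18, and 11 had an unadjusted p of 0.05 or less, all higher. Tnfaip3 (A20, which restrains the pathway) read 13.35, 13.80 and 13.71 against 4.24, 5.85 and 7.63, 7.71 higher (adjusted p = 0.00438). Nfkbia, the inhibitor that NF-kappaB itself induces, was 4.34 higher and Il1b (interleukin-1 beta) 5.01 higher. Heat shock and unfolded protein genes did not share a direction, with 2 of 17 higher and 7 lower (4 lower without HSC array 2 or ESC array 1). The shares over all genes were 8.74% higher and 9.99% lower. Hspa1a was 5.29 higher, while the small heat shock protein Hspb1 read 6.60, 6.94 and 7.12 against 12.84, 12.76 and 12.40. Chac1 and Trib3, targets of the ATF4 stress pathway, fell by 5.73 and 4.00.

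Genes of MHC class I loading and of the interferon response were called higher for 18 of 21, with a median difference of 4.32, and for 2 of 21 with the covariate. H2-K1, a classical class I heavy chain, read 14.57, 14.77 and 14.71 against 9.71, 10.79 and 10.58, 4.32 higher (SE 0.30, adjusted p = 0.000903). Class I genes are a family of near-identical copies, so a probe set can read several of them. B2m, the light chain, was 4.31 higher and Psmb8, a subunit of the immunoproteasome, 7.40 higher. Irf1, the factor that answers interferon gamma, read 12.49, 12.76 and 12.73 against 8.49, 8.29 and 8.47. Ifit1 and Stat2 were not called.

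The promoter of H2-K1 is shown because it holds a kappa-B motif. Capitals mark that motif, from 111 to 102 bases before the annotated start, in the RefSeq sequence of chr17:34000348-34000597 on the minus strand (GRCm38.p6).
H2-K1: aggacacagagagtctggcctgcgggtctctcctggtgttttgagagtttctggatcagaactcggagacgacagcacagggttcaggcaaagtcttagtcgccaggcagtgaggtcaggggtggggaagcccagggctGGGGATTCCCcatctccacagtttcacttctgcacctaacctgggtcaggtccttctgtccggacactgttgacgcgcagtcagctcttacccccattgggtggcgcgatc

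The same letters, on either strand, stood in 3 of 21 promoters of the class I and interferon list (14.3%) and in 35 of all 32851 promoters (0.107%). The letters are those of the H2-K1 site shown, and H2-K1 is in that list, so its match is no independent result. Matches in near-identical class I copies are not independent of it either. The letters stood in 0 of 20 promoters of the NF-kappaB pathway list. The interferon response motif, GAAA followed after any 2 bases by another GAAA, searched on both strands, stood in 6 of the 21 (28.6%), against 3.44% of all promoters.

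Receptors and adhesion molecules completed the blood side. Cytokine receptors were called higher for 16 of 21, chemokines and their receptors for 13 of 18, and leukocyte integrins and actin regulators for 15 of 22 with 2 lower. With the covariate 1, 6 and 4 of them were called, all higher. Il2rb, the beta chain of the receptors of interleukin 2 and interleukin 15, was 7.78 higher (SE 0.17, adjusted p = 1.72e-05). Cxcr6 and Cxcr3, chemokine receptors of effector T and NK cells, were 8.24 and 6.94 higher. Cxcr4, which holds stem cells in the marrow, read 6.24, 5.51 and 8.04 against 4.10, 3.73 and 4.13 (adjusted p = 0.0685) and was not called. Itga5, a fibronectin receptor chain, was lower, at 5.70, 5.45 and 5.98 against 7.92, 8.13 and 8.59. Bcl2, which guards lymphocytes from apoptosis, read 9.68, 11.04 and 10.50 against 4.94, 4.60 and 4.53. It and Mcl1 were the 2 called of the 12 members of the Bcl2 family, both higher, against 8.74% of all genes.

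The probe set assigned to Mir142, a microRNA gene of blood cells, was chosen after its values were seen. It read 9.50, 10.12 and 10.82 on the HSC arrays and 6.88, 6.86 and 6.66 on the ESC arrays, 3.35 higher (SE 0.35, adjusted p = 0.00339). The array reads polyadenylated RNA at that gene and not the mature arms, which are shown from RefSeq (GRCm38.p6, chr11:87756867-87756887 and chr11:87756903-87756925, plus strand) with bases 2 to 8, the seed, in capitals.
mmu-miR-142a-5p: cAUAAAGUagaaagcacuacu
mmu-miR-142a-3p: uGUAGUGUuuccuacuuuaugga

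On the ESC side, transcription factors of pluripotent cells were called lower on the HSC arrays for 15 of 21 and higher for 1, against 9.99% of all genes called lower, with a median difference of -4.90. Zfp42 (Rex1), a marker of the undifferentiated state, read 3.09, 2.95 and 2.91 on the HSC arrays and 13.14, 13.13 and 13.04 on the ESC arrays. It fell by 10.12 (SE 0.10, adjusted p = 6.73e-06), a ratio of 1114-fold and the largest of all genes in this direction. Pou5f1, which encodes Oct4, read 3.27, 3.32 and 3.96 against 12.94, 12.90 and 13.20.

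Nanog read 3.60, 3.50 and 3.46 against 11.79, 11.60 and 11.95, and Sox2, which binds DNA together with Oct4, 2.97, 2.90 and 3.28 against 11.01, 11.16 and 10.46. No HSC array came within reach of the ESC values for these 4 genes. The promoter of Nanog is shown because Oct4 and Sox2 are known to bind a joint motif there. Capitals mark the octamer TTTGCAT joined to a Sox motif, from 75 to 62 bases before the annotated start, in the RefSeq sequence of chr6:122707239-122707488 on the plus strand (GRCm38.p6).
Nanog: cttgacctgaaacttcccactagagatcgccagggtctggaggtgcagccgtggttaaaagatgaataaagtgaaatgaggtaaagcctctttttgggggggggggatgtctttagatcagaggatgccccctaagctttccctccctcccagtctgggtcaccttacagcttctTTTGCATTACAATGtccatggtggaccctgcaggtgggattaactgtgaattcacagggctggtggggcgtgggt

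The joint motif, with any base allowed at the 8th and 13th letters, on either strand, stood in 3 of 32851 promoters, and 2 of those are windows of Nanog itself. Its fixed letters are those of the Nanog site shown, so the match there is no independent result. The octamer, with or without the Sox motif, stood in 4 of 24 promoters of the pluripotency factors (16.7%), against 4.63% of all promoters. These 4 include the 2 that hold the joint motif, so they are no separate result. The octamer stood in 0 of 16 promoters of the early embryo list.

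Other factors of the circuit followed, among them Tbx3, which fell by 5.15, Nr0b1 by 5.93, Tcl1 by 6.40 and Tfcp2l1 by 6.16. Esrrb, a nuclear receptor of the circuit, read 7.33, 7.73 and 8.11 against 9.26, 9.08 and 9.28 (adjusted p = 0.0112). The Kruppel-like factors differed in direction. Klf5 read 4.58, 4.93 and 4.68 against 6.09, 8.13 and 8.37 and fell by 2.80 (adjusted p = 0.048), a call lost without any array other than ESC array 1 (up to 0.147). Klf2, which also keeps lymphocytes quiescent, was the member called higher, at 13.54, 13.83 and 13.71 against 10.68, 10.65 and 11.53 (2.74 higher, SE 0.27, adjusted p = 0.00294). Klf4, of pluripotent and myeloid cells, read 10.54, 12.12 and 11.63 against 11.12, 10.99 and 10.84, and the groups overlap (adjusted p = 0.609). Lin28a, an RNA-binding protein, was spread on the ESC side, at 4.76, 4.14 and 4.28 against 6.21, 7.63 and 4.59, and was not called (adjusted p = 0.272). With the covariate 7 of the 21 stayed called, all lower.

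Genes known mainly from the early embryo were called lower for 19 of 23, and none higher, with a median of -4.88. With the covariate 4 of them stayed called. Dppa5a, an RNA-binding protein of pluripotent cells, read 4.93, 5.01 and 4.76 on the HSC arrays and 14.59, 14.64 and 14.53 on the ESC arrays, and fell by 9.69 (SE 0.11, adjusted p = 6.73e-06). Tdgf1 (Cripto, a coreceptor of Nodal) fell by 8.64 and Fbxo15, an early target of Oct4, by 6.33. Morc1, of germ cells and the early embryo, read 3.32, 3.38 and 3.36 against 9.31, 9.47 and 8.65. None of the 6 measured genes of the two-cell embryo was called; their median level was 3.42 to 3.57 per HSC array and 3.71 to 4.05 per ESC array.

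Genes of the LIF pathway were called higher more often than lower on the HSC arrays. Of 16 measured, 8 were called higher and 1 lower on the HSC arrays (5 higher without HSC array 1). Lifr, the LIF receptor chain, read 6.03, 6.54 and 4.28 against 9.23, 9.03 and 7.90, and fell by 3.11 (adjusted p = 0.0464), a call lost when any single array was left out (up to 0.147). Il6st (gp130, the shared signalling chain) was not called, at 8.25, 8.71 and 10.24 against 6.75, 8.89 and 9.30. The signal carriers were higher on the HSC arrays: Jak1 by 3.52 (SE 0.42, adjusted p = 0.00553) and Stat3 by 1.93 (SE 0.25, adjusted p = 0.00712). Like other calls given above, that of Stat3 was lost against a 2-fold change and with the replicate numbers as a block. Cish, a feedback inhibitor induced by STAT5, read 10.22, 10.22 and 10.21 against 6.99, 7.05 and 7.97. With the covariate limma called 0 of the 16, and 6 had an unadjusted p of 0.05 or less, all higher.

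Nodal, BMP and FGF genes were called lower for 11 of 27 and higher for 2, Id2 and Smad3. With the covariate 1 of the 27 was called, and it was lower. Fgf4, the growth factor that embryonic stem cells make, read 4.06, 4.48 and 3.89 against 10.39, 10.28 and 10.51, and fell by 6.25 (SE 0.18, adjusted p = 4.84e-05). Lefty2 and Lefty1, secreted inhibitors of Nodal, fell by 6.14 and 3.90, and the receptor Fgfr1 by 4.32. Id2, an inhibitor of basic helix-loop-helix factors needed for NK cells, read 10.24, 10.15 and 8.41 against 4.00, 4.06 and 3.94. Wnt genes were called lower for 6 of 19 and higher for 1, against 9.99% and 8.74% of all genes. With the covariate limma called 0 of the 19. Sfrp1, a secreted Wnt inhibitor, fell by 3.59, and Ctnnb1 (beta-catenin) read 11.46, 11.95 and 11.34 against 13.06, 12.85 and 12.81.

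Epithelial and basement membrane genes were called lower for 12 of 23 and higher for none, with a median of -2.60. With the covariate 2 were called. Among the laminin chains that embryonic stem cells secrete, Lama1 read 4.24, 4.68 and 4.78 against 11.97, 11.76 and 11.97, Lamb1 fell by 6.36 and Lamc1 by 6.16. Cdh1 (E-cadherin, which joins embryonic stem cells in colonies) read 3.35, 6.16 and 2.94 against 10.81, 10.99 and 10.44, so a single HSC array lay above the others and still below every ESC value. Epcam, another adhesion molecule, was not called, at 7.87, 4.35 and 7.44 against 8.99, 8.94 and 9.52 (adjusted p = 0.192). Beyond the list, Nid2, which links laminin to collagen, fell by 7.43, Sparc, a matrix protein, by 8.10 and Jam2 by 7.75. Bex1 read 7.70 on HSC array 1 and 3.95 and 3.37 on the others, against 13.77, 13.78 and 13.79.

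Genes of differentiated tissue were present on the ESC arrays to unequal degrees. Stmn2, a microtubule protein of neurons, read 5.91, 5.96 and 5.58 on the HSC arrays and 10.02, 11.20 and 10.93 on the ESC arrays, and fell by 4.90 (SE 0.34, adjusted p = 0.000853). Tubb3, the neuronal beta-tubulin, fell by 5.07. The neural list as a whole gave 5 of 21 called lower and 1 higher, against 9.99% and 8.74% of all genes. With the covariate limma called 0 of the 21. Sox1, Pax6 and Dcx, which define neural precursors and young neurons, were not called. Pax6 read 5.96, 6.08 and 6.04 against 6.25, 5.86 and 6.16.

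Primitive endoderm genes were clearer, within a mesoderm and endoderm list of 19 with 8 lower and 3 higher. The shares over all genes were 9.99% lower and 8.74% higher. With the covariate 1 of the 19 was called, and it was lower. Gata6 and Gata4, factors of that layer, fell by 4.95 and 3.84, and Dab2, an endocytic adaptor, read 5.89, 4.71 and 4.69 against 11.63, 11.34 and 11.77. Foxa2, Mixl1 and Gsc, of definitive endoderm and the primitive streak, were not called. The 3 higher members, Eomes, Afp and Tbx6, are not all specific to those layers, since Eomes also acts in NK and T cells. None of the 3 was called without HSC array 1 or ESC array 2, and 1 was called without HSC array 2, ESC array 1 or ESC array 3. The highest adjusted p on leaving out an array was 0.131 for Eomes, 0.113 for Afp and 0.105 for Tbx6, and Eomes was also not called without HSC array 3.

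Germ cell genes were called lower for 9 of 19 and higher for none. Rhox5, a homeobox gene on the X chromosome, read 4.68, 4.80 and 5.42 against 11.39, 11.37 and 11.39, and Mael, of the piRNA pathway, fell by 5.28. Ddx4, a late germ cell marker, read 2.95, 3.39 and 7.32 on the ESC arrays and 2.64, 2.95 and 2.60 on the HSC arrays. It was thus above the rest on ESC array 3 only and was not called (adjusted p = 0.47). Similar one-sided spread among the ESC arrays was seen for Nefl, a neurofilament gene, at 6.87, 6.63 and 3.05, and for Dsp (desmoplakin) at 5.98, 9.26 and 2.99.

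**Figure D4:**
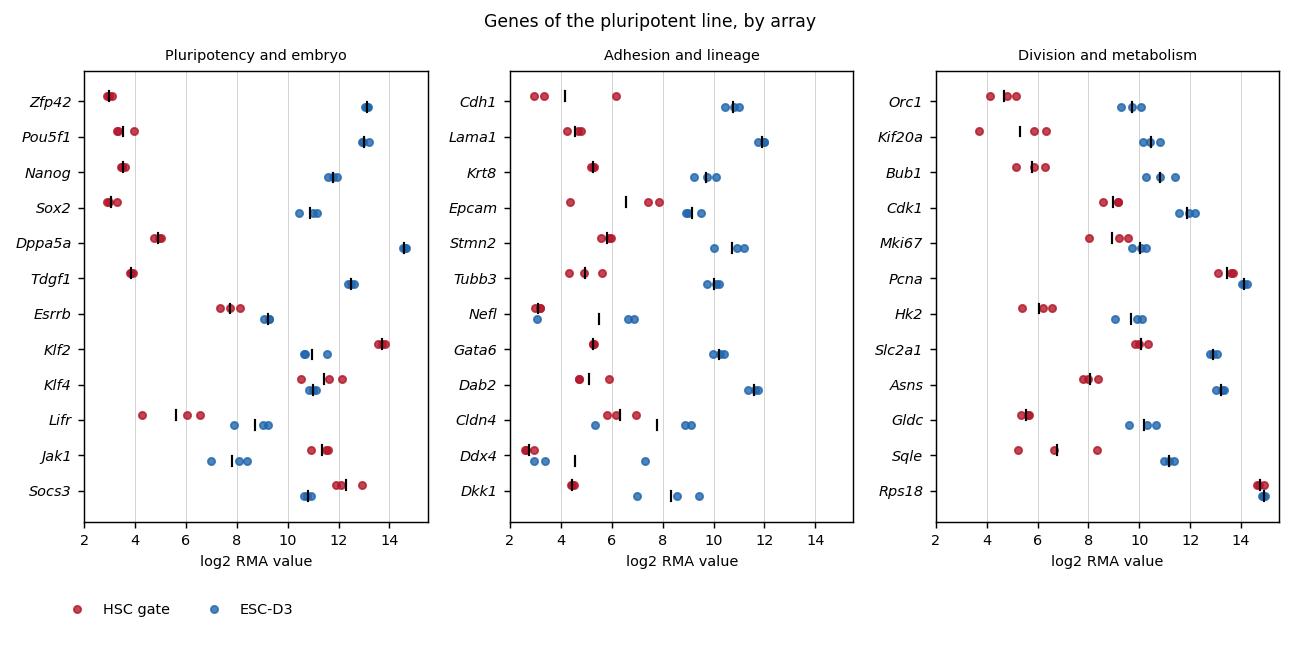
Each row is a gene, with its log2 RMA value on the 3 HSC arrays in red and the 3 ESC arrays in blue, and short black bars mark group means. Zfp42, Pou5f1, Nanog, Sox2, Dppa5a and Lama1 are wide apart, Klf4 overlaps, Klf2 lies higher on the HSC arrays, and Ddx4, Nefl and Cldn4 are spread among the ESC arrays. In the right panel Orc1 and Asns are lower on the HSC arrays and Rps18 is not apart.

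Genes of cell division were lower on the HSC arrays. Mitotic spindle and checkpoint genes were called lower for 21 of 26 and higher for none, with a median difference of -2.83. Bub1, a checkpoint kinase, read 5.13, 5.85 and 6.30 against 11.39, 10.27 and 10.81, and fell by 5.06 (SE 0.42, adjusted p = 0.00154). Cdk1, the kinase that drives mitosis, read 9.16, 8.59 and 9.17 against 11.94, 12.19 and 11.54. Mki67, a widely used marker of cycling cells, was not called, at 8.02, 9.57 and 9.21 against 9.70, 10.26 and 10.07 (adjusted p = 0.226). With the covariate 1 of the 26 stayed called, with a median of -3.02.

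The promoter of Cdc20, which triggers the exit from mitosis and fell by 2.85 (adjusted p = 0.00281), is shown for motifs common in this list. Capitals mark CCAAT and the cell cycle homology motif TTTGAA, the latter from 18 to 13 bases before the annotated start, in the RefSeq sequence of chr4:118437344-118437593 on the minus strand (GRCm38.p6).
Cdc20: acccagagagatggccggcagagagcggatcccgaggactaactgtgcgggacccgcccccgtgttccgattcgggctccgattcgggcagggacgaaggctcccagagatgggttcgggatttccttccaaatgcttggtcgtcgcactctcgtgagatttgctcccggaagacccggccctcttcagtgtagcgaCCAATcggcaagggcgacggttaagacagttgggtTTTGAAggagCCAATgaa

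On either strand, TTTGAA stood in 17 of 23 mitosis promoters (73.9%), against 17.9% of all promoters, and CCAAT also in 17 (73.9%), against 37.4%.

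DNA replication genes were called lower for 16 of 28 and higher for none, with a median of -1.77. With the covariate limma called 0 of the 28, and 12 had an unadjusted p of 0.05 or less, all lower. Orc1, which marks replication origins, read 4.13, 4.79 and 5.16 against 9.70, 9.29 and 10.08, and Gins1, of the replicative helicase, fell by 3.76. Pcna, the sliding clamp, read 13.60, 13.69 and 13.08 against 14.13, 14.04 and 14.23 and was not called (adjusted p = 0.0907). Repair genes of homologous recombination were called lower for 8 of 19 (5 without HSC array 1 or ESC array 1, and 4 without ESC array 3). With the covariate limma called 0 of these 19. Among regulators of the G1 phase 4 of 22 were higher and 3 lower, against 8.74% and 9.99% of all genes. Ccnd2 (cyclin D2) was 5.48 higher (adjusted p = 0.00139) and the inhibitor Cdkn2d 2.97 higher, while Cdk4 fell by 1.76 and Ccne1 (cyclin E1) by 1.42. The p53 target Cdkn1a overlapped between the groups, at 9.81, 10.45 and 9.88 against 10.36, 10.29 and 9.65.

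Biosynthetic genes were also lower. Glycolysis and glucose transport genes were called lower for 11 of 13, with a median of -1.91. With the covariate limma called 0 of the 13, and 10 had an unadjusted p of 0.05 or less, all lower. Slc2a1 (the glucose transporter GLUT1) read 9.84, 10.36 and 9.98 against 12.79, 12.91 and 13.05, and Hk2 (hexokinase 2) fell by 3.63. Serine, glycine and folate genes were called lower for 10 of 16 and higher for 1. Asns (asparagine synthetase) read 7.96, 7.80 and 8.37 against 13.34, 13.26 and 13.02, and Gldc, which splits glycine for one-carbon units, fell by 4.63 (SE 0.29, adjusted p = 0.000657). Slc1a5, a glutamine transporter, was the higher member, by 1.67, a call lost without HSC array 2 or ESC array 1 (up to 0.0535).

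Cholesterol synthesis genes were called lower for 7 of 13 (4 without ESC array 3), among them Hmgcs1, which fell by 2.89. Respiratory chain genes were called lower for 9 of 22, with a median of -0.62. That count was 4 without HSC array 2, ESC array 1 or ESC array 2 and 5 without ESC array 3. Nucleolar ribosome assembly genes were called lower for 14 of 22 (9 without ESC array 1 and 7 without ESC array 2), among them Npm1 (nucleophosmin), which read 13.43, 13.37 and 13.17 against 14.39, 14.41 and 14.41. Ribosomal proteins themselves gave 1 call in 17, with a median difference of -0.04. Rps18 read 14.91, 14.72 and 14.64 against 14.86, 14.84 and 14.96. With the covariate limma called 0 genes of the amino acid, cholesterol, respiratory chain and nucleolar lists, where 5, 5, 4 and 8 genes had an unadjusted p of 0.05 or less and were lower.

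Chromatin genes were read in several lists. DNA methylation and Tet genes were called lower for 6 of 11 and higher for 1. Dnmt3l, the cofactor of the de novo methyltransferases, fell by 4.88 and Dnmt3a by 3.59, while the maintenance enzyme Dnmt1 fell by 0.58, at 10.99, 10.83 and 11.02 against 11.56, 11.56 and 11.47 (adjusted p = 0.0187). The Dnmt1 call was lost without any one of the ESC arrays (up to 0.0716). Mbd2, a reader of methylated DNA, was 3.72 higher. Polycomb genes were called lower for 5 of 20 and higher for 1, against 9.99% and 8.74% of all genes. The count called lower was 3 without HSC array 1 or any one of the ESC arrays. Phc1 fell by 3.84 and Jarid2 fell by 1.80, while Cbx8 was 2.06 higher. Remodelling genes gave 3 higher and 4 lower of 21, against 8.74% and 9.99% of all genes. Smarca2 (BRM) read 8.97, 10.41 and 8.35 against 5.03, 3.76 and 4.81, whereas its paralogue Smarca4 (BRG1) overlapped, at 11.16, 11.02 and 11.10 against 10.66, 11.71 and 11.21. Imprinted genes were called lower for 5 of 20 and higher for 1 (3 lower without HSC array 1), against 9.99% and 8.74% of all genes. Phlda2, which restrains placental growth, fell most, by 4.10. With the covariate limma called 0 genes of the methylation, Polycomb, remodelling and imprinted lists.

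**Figure D5:**
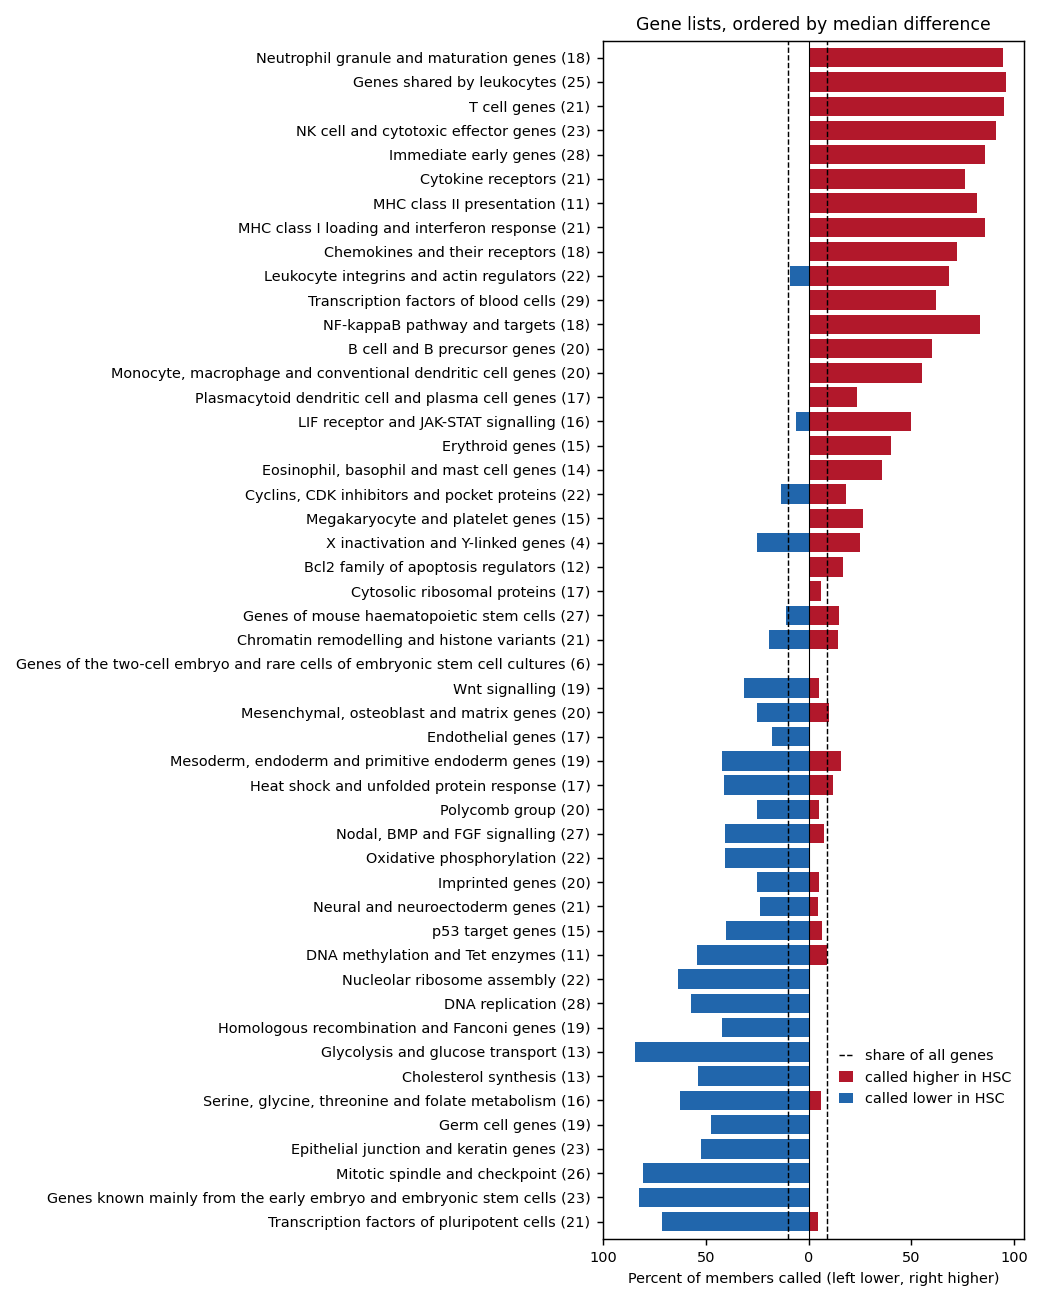
Each row is a gene list with its number of measured members, ordered by median difference. Bars to the right give the percent of members called higher on the HSC arrays, bars to the left the percent called lower, and the dashed lines mark the shares over all genes, 8.74% higher and 9.99% lower. Leukocyte, neutrophil, T and NK cell lists lie at the top and pluripotency, embryo and mitosis lists at the bottom, with ribosomal proteins and stem cell genes between them.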

How the data were processed

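Gene expression was measured on 9 mouse arrays, of which the 3 HSC and the 3 ESC-D3 arrays are compared here. The deposited table holds log2 values per probe set, made by the authors with RMA in Partek 6.5, per the submitters' processing notes. Those notes give no RMA settings and do not say whether the arrays were normalized together. The values were used as deposited. The 64 control probe sets of the 45101 were left out. Of the rest, 34945 are assigned to 1 gene in the platform annotation and 34741 of these were matched to a RefSeq gene by identifier.

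HSC was tested against ESC with limma 3.58.1 in R 4.3.3 (lmFit, then eBayes), two-sided, on the 6 arrays alone, with Benjamini-Hochberg adjustment over 45037 probe sets. The small number of arrays limits the precision. A positive difference is higher in HSC. Each gene was read from its one-gene probe set with the highest mean over the 6 arrays. Named genes were the 15 largest called differences in each direction, up to 6 called members of a list in each direction, marker and gate antigen genes, members high in the group where their list is low, and members known for a role that were not called. The Mir142 probe set was added after its values were seen. The members and the gene lists were chosen with earlier results of these data known. The test was checked on simulated data. Alternatives covered the normalization, the probe sets kept, the arrays in the fit, array weights, the prior, a transcript integrity covariate, a replicate block, a test against a 2-fold change and leaving out each array. Promoters and microRNAs are RefSeq sequences of GRCm38.p6.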

Additional observations from a re-analysis of the deposited data

How the results depend on the processing

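The number of genes called, 3408, stayed within 1.5 times under another normalization, array weights, another prior, another rule for reading a gene and all 9 arrays, and lay between 2531 and 2872 when 1 array was left out (4171 to 4869 probe sets). Other settings moved the counts further. Against a 2-fold change (limma's treat) 1568 genes and 2492 probe sets were called, without probe sets that may read several transcripts 3403 probe sets, and with the transcript integrity covariate 178 genes and 264 probe sets. The replicate numbers do not pair the arrays (correlations of deviations -0.0125, -0.013 and -0.0108); with them as a block 2332 genes and 3833 probe sets were called. With the covariate the difference changed sign for Id1 (0.14), Krt18 (0.35), Slamf1 (-0.14), Egr1 (-0.49) and Tnf (-0.185). With the mean of a gene's probe sets it did so for Nkd1 (-0.46), Egr3 (2.04), Nr4a2 (2.58) and Rps3 (-0.90). Without probe sets that may read several transcripts it did so for Tcf12 (-0.0251), Evi2a (-0.11), Prf1 (-0.29), Ccr9 (-0.27), Hspa1b (-0.76), Gnas (-0.18), Rps3 (-2.36) and Xist (-0.11). Of these, Id1, Krt18, Egr1, Tnf, Prf1 and Xist also lost their call without some single arrays: each of the ESC arrays (for Xist ESC arrays 1 and 3), and HSC array 3 for Id1, HSC arrays 2 and 3 for Krt18, Egr1 and Tnf, HSC array 2 for Prf1 and HSC array 1 for Xist. Their highest adjusted p was then 0.0599, 0.0957, 0.0797, 0.123, 0.111 and 0.0707, in that order. The cause was not tested. Background signal limits what can be said of genes low in both groups, since no detection calls were used.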
